A study of Mus musculus with 6 samples.

Results

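The genes described here are 10 transcription factors known as drivers of the epithelial-mesenchymal transition (EMT), namely Snai1, Snai2, Snai3, Twist1, Twist2, Zeb1, Zeb2, Prrx1, Tcf4 and Foxc2. They are listed by name, and their probes are all array features whose transcript accession belongs to a listed gene, which gave 13 features (probes) for the 10 genes, of 20660 genes that could be named on the array. Their RNA was measured in mammary epithelial cells of female C57Bl6J mice, in 3 biological replicates a population, each on an Agilent 1-color array that reports the brightness of a Cy3-labelled copy of the RNA. The E18.5 fetal cells came from glands of embryonic day 18.5, digested briefly and sorted for CD49f+ and very high EpCAM (EpCAM++) without CD31, CD45 and Ter119. Adult basal cells came from glands of mice aged 8 to 12 wk, digested overnight and sorted for CD49f+ and EpCAM+ without those markers and without BP-1. No mouse carried a transgene or received a treatment according to the labels, which do not say how many glands were pooled for a replicate. Age, sort gate and digestion differed together between the populations, so that their parts in any difference cannot be told apart. All differences below are E18.5 fetal minus adult basal on the log2 scale, and a negative difference is a higher signal in adult basal cells.

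The EMT transcription factors are repressors and activators that switch epithelial cells, which are held together by junctions, towards a motile and contractile mesenchymal state. Snail (Snai) and Zeb proteins are zinc-finger repressors that bind a short DNA element, the E-box, in the promoters of epithelial genes such as that of E-cadherin. Twist proteins and Tcf4 belong to the basic helix-loop-helix class, which binds E-boxes as dimers and is held in check by Id proteins, whereas Prrx1 is a homeodomain protein and Foxc2 a forkhead protein. In the mammary gland the basal layer consists of contractile myoepithelial cells and contains stem cells, and Snai2 (Slug) is known to be active there.

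The E-box that Snail and Zeb proteins bind is shown first, because its known target genes are described below beside the factors that read it. It is written CACCTG on 1 strand and CAGGTG on the other, and these spellings, which cannot overlap each other, were searched in the 250 bases before the annotated start of each gene (RefSeq sequence, build GRCm38.p6). Of all 32851 promoter windows of this length, 17.2% held it. Among a list of epithelial genes that these factors are known to repress (junction, polarity and surface proteins, see the target genes below), 14 of 21 windows held it (66.7%), against 4 of 10 windows of epithelial regulators, 6 of 11 of luminal markers (which share genes with these lists) and 0 of 14 of mesenchymal genes, some genes having several windows. The 21 windows belong to 15 of the 21 target genes, and Cdh1 is not among them. Of these 15 genes, 12 held the element in at least 1 window. The windows of Crb3 overlap and hold the same 3 elements. Because these genes are listed as known targets of factors that bind the element, its share among them is no independent result. Basal markers held the element in 2 of 8 windows, genes that set the stability of these factors in 2 of 9 and corepressors in 0 of 15. Windows with it included those of Oxtr and Lats2, which are named below and are not epithelial targets. Of the EMT transcription factors themselves, the windows of Snai1, Twist1, Twist2, Zeb2 and Prrx1 were read, and that of Snai1 alone held the element. A match is only a run of letters in this window and says nothing of binding in these cells. The windows of Snai1 (chr2:167537945-167538194, plus strand), Epcam (chr17:87635729-87635978, plus strand), Cldn7 (chr11:69965171-69965420, plus strand), Elf5 (chr2:103411848-103412097, plus strand), Grhl3 (chr4:135573633-135573882, minus strand) and Foxa1 (chr12:57546112-57546361, minus strand) follow, 5′ to 3′ in the direction of the gene with the element in capitals, Snai1 as the member that holds it and the others as epithelial genes named below.
Snai1: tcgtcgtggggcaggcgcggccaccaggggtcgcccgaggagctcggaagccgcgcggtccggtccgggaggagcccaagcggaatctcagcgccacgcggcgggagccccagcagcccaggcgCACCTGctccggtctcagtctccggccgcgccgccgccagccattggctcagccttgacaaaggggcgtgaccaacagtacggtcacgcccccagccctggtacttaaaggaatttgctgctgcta
Epcam: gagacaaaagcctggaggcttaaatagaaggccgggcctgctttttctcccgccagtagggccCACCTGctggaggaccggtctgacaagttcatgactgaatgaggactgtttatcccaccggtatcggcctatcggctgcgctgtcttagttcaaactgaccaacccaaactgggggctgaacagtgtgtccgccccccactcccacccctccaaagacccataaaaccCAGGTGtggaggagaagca
Cldn7: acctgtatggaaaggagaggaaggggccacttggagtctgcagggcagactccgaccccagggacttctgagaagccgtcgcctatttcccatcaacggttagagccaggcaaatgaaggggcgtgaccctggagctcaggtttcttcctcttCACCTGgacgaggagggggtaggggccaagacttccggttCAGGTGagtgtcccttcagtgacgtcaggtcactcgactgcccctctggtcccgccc
Elf5: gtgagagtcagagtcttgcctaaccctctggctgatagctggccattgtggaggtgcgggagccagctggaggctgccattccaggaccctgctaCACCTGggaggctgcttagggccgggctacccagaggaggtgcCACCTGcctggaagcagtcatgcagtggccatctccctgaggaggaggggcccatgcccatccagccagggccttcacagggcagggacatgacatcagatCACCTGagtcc
Grhl3: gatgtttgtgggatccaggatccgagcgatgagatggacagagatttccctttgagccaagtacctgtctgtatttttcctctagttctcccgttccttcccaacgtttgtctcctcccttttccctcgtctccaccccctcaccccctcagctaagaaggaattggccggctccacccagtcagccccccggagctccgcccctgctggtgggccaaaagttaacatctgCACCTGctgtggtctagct
Foxa1: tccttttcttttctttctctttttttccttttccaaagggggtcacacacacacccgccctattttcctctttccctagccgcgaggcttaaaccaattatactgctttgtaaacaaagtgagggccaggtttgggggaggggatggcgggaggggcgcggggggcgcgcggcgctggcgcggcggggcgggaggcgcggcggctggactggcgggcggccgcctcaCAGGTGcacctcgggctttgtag
Counted back from the annotated start, the element began at base -126 in Snai1, at -187 and -19 in Epcam, at -97 and -57 in Cldn7, at -155, -112 and -11 in Elf5, at -19 in Grhl3 and at -23 in Foxa1. Other windows of Elf5 and Cldn7, at further annotated starts, did not hold it, nor did those of Cldn3, Cgn and Ovol2, which are also named below.

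Of the 10 genes, Snai2, Zeb1 and Prrx1 had a higher signal in adult basal cells, and no gene was called higher in fetal cells. A gene was called where limma's test over all 20448 tested probes gave p of 0.05 or less after Holm adjustment and the difference was at least 1 on the log2 scale, that is 2-fold. At an unadjusted p under 0.05, 0 of the 8 tested genes were higher in fetal and 6 in adult basal cells, beside 31.8% and 32.0% of all tested genes, and 5 of these 6 reached the low-signal filter in adult basal cells alone. By the Holm rule 11.2% of the 15725 tested genes were called, 5.20% of them as higher in adult basal and 6.02% as higher in fetal cells. With the less strict Benjamini-Hochberg adjustment, Snai1, Twist2 and Zeb2 were added to the called genes, which made 6, beside 13.9% of tested genes that were higher in adult basal and 15.8% that were higher in fetal cells. Of all 10 genes, tested or not, 7 had every adult basal array above every fetal array and 3 had overlapping arrays, beside 29.4% of the 20660 genes with adult basal arrays above and 28.0% with fetal arrays above. The median difference of the 10 genes was -2.23, and -2.06 with genes that were not well above background in fetal cells set at their bound, against -0.03 over the 20660 genes. The count of 3 called genes was 0 without fetal array 1, 1 without fetal array 2, fetal array 3 or adult basal array 3, and 2 without adult basal array 1 or 2. A low-signal filter had removed Twist1 and Foxc2 from the test. Of the 8 genes tested, 6 reached the filter in only 1 population, which selects for a difference, so the share of tested genes that were called is not a measure of the group. The design allows no exact permutation p below 0.1 for a single gene, and every p below comes from the model fitted over all probes.

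**Figure D1:**
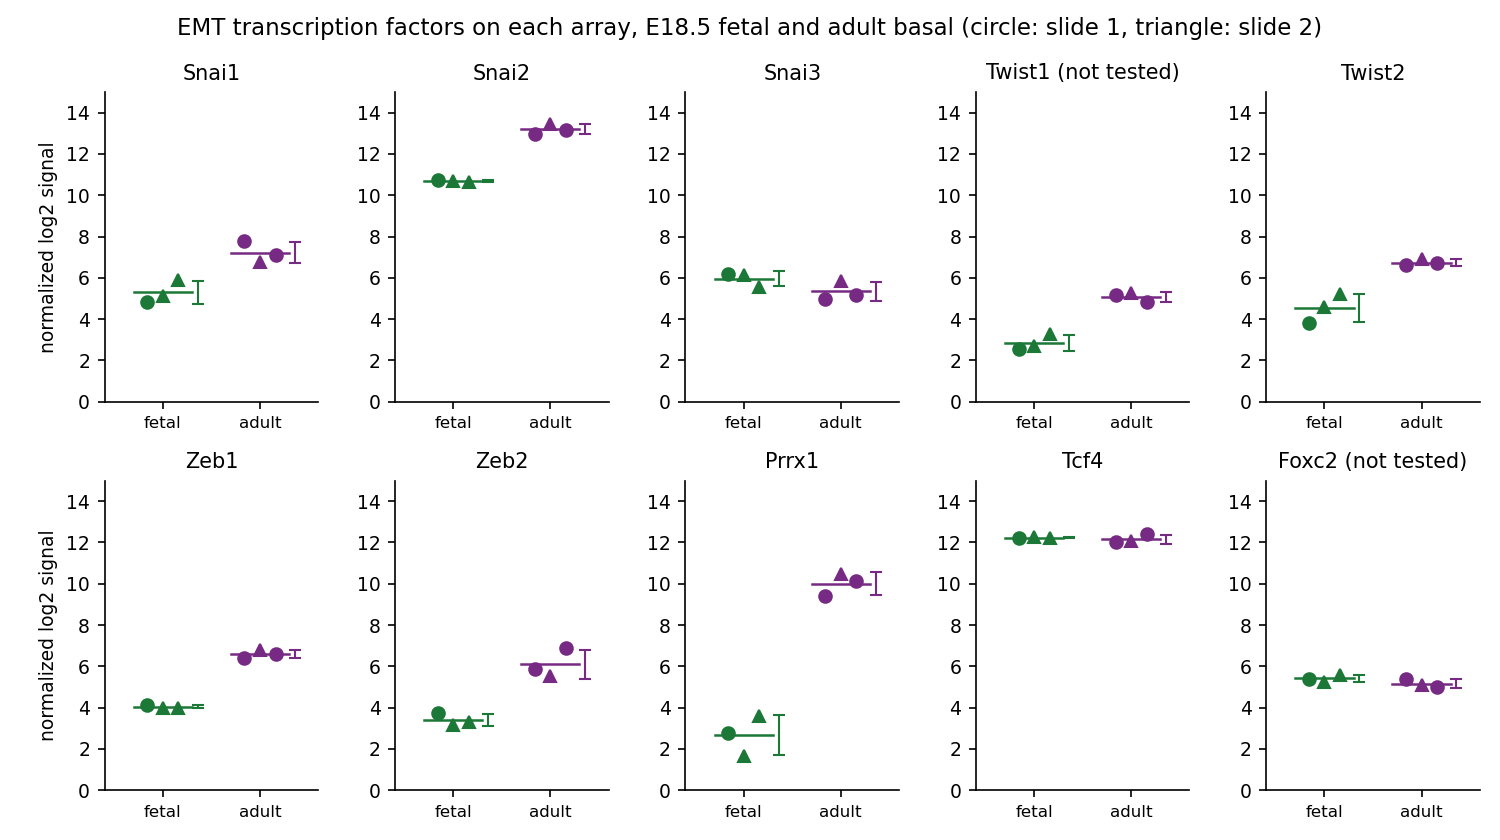
Normalized log2 signal (vertical axis) of the main probe of each of the 10 genes on the 3 E18.5 fetal (green) and 3 adult basal (purple) arrays, with the mean (line) and SD (bar at the side); circles were on slide 1 and triangles on slide 2. The adult basal points lie above all fetal points in 7 panels and overlap them for Snai3, Tcf4 and Foxc2.

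Snai2, the Snail family member known as Slug, was well above background on all 6 arrays. Its normalized log2 signal was 10.73, 10.70 and 10.65 on the fetal arrays against 12.96, 13.45 and 13.16 on the adult basal arrays. The fetal arrays lay within 0.1 of each other and far below the lowest adult basal array. The difference was -2.50 (SE 0.14, 95% interval -2.83 to -2.17), a 5.64-fold higher signal in adult basal cells (limma, Holm-adjusted p = 0.00644). It was -2.33 among the arrays of slide 1 and -2.78 among those of slide 2, and with slide as a block it was -2.55 (Holm-adjusted p = 0.0219). The difference stayed between -2.61 and -2.37 when any 1 array was left out, but the Holm-adjusted p then rose above the threshold without fetal array 1 (0.125), fetal array 2 (0.114), fetal array 3 (0.102) or adult basal array 3 (0.071).

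Snai1, the founding Snail gene and a direct repressor of E-cadherin, was also well above background on all 6 arrays and had a wider spread than Snai2. Its log2 signal was 4.85, 5.14 and 5.90 on the fetal arrays against 7.80, 6.76 and 7.11 on the adult basal arrays, so the populations did not overlap although each spread over about 1 log2 unit. The difference of -1.93 (SE 0.34, 95% interval -2.73 to -1.13) passed with Benjamini-Hochberg adjustment (adjusted p = 0.00182) and not with Holm adjustment (adjusted p = 1). It was -2.61 on slide 1 and -1.25 on slide 2. Snai3, the least studied member of the family, gave 6.21, 6.12 and 5.54 on the fetal arrays against 4.98, 5.84 and 5.19 on the adult basal arrays. The populations overlapped, and the difference of 0.62 had a 95% interval from -0.01 to 1.24 (Holm-adjusted p = 1), with 1.12 on slide 1 and -0.01 on slide 2. Of the 3 Snail genes, Snai2 was thus called by both rules, Snai1 by the less strict rule and Snai3 by neither, and the differences between the genes were not tested.

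The Twist genes, helix-loop-helix factors of mesoderm and mesenchyme, were near or under the low-signal filter. Twist2 had a log2 signal of 3.82, 4.60 and 5.20 on the fetal arrays against 6.61, 6.90 and 6.71 on the adult basal arrays, all of them well above background. The adult basal arrays were close together and lay above all fetal arrays, which spread over more than 1 log2 unit. The difference was -2.20 (SE 0.32, 95% interval -2.95 to -1.45, Holm-adjusted p = 1, Benjamini-Hochberg-adjusted p = 0.000659), and it was -2.83 on slide 1 and -2.01 on slide 2. Twist1 had 2.54, 2.69 and 3.27 on the fetal arrays, on none of which it was well above background, and 5.16, 5.28 and 4.82 on the adult basal arrays, on all of which it was. With the fetal arrays set at a floor, the bound of its difference was a 2.34-fold higher signal in adult basal cells. Such bounds compare the mean of the brighter population with the mean of, for each dim array, the lowest signal called well above background there or the probe's own signal if higher. These bounds hold on this scale only and are not limits of detection. Twist1 differed by -1.11 with an offset of 16 added to the signal and by -0.53 with a normexp background correction. It lay under the low-signal filter in both populations and has no p here.

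Zeb1 and Zeb2 are large zinc-finger and homeodomain repressors that act on the same E-box. Zeb1 had a log2 signal of 4.14, 3.99 and 3.997 on the fetal arrays, of which 1 was well above background, and of 6.39, 6.80 and 6.59 on the adult basal arrays, where all 3 were. Both populations were tight and lay far apart. The difference of -2.55 (SE 0.13, 95% interval -2.85 to -2.24) amounted to a 5.85-fold higher signal in adult basal cells (limma, Holm-adjusted p = 0.00323). For the 2 fetal arrays not well above background, the lowest signal called so was then used, or the array's own signal if higher. This gave 5.56-fold. The difference was -2.35 on slide 1, -2.80 on slide 2 and -2.57 with slide as a block (Holm-adjusted p = 0.0205). Without fetal array 1, 2 or 3 the Holm-adjusted p was 0.0535, 0.066 and 0.0573, at differences of -2.60, -2.52 and -2.52. Because the fetal signal was close to background, the size of this difference depended on the background treatment, falling to -1.79 with an offset of 16 added to the signal and to -0.96 with a normexp background correction, and under both settings Zeb1 no longer reached the low-signal filter.

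Zeb2, which like Zeb1 represses E-cadherin, had a log2 signal of 3.73, 3.17 and 3.31 on the fetal arrays, 1 of them well above background, and of 5.86, 5.55 and 6.90 on the adult basal arrays. Adult basal array 3 stood above the others of its population, and no fetal array reached the lowest adult basal array. The difference was -2.70 (SE 0.34, 95% interval -3.50 to -1.90, Holm-adjusted p = 1, Benjamini-Hochberg-adjusted p = 0.000331), with -2.65 on slide 1 and -2.30 on slide 2. Without adult basal array 3 Zeb2 no longer reached the low-signal filter, which ended its Benjamini-Hochberg call. Since only 1 fetal array measured Zeb2, its size is uncertain, and with the other 2 fetal arrays set at the lowest signal called well above background on them it was -2.13. The second Zeb2 probe was well above background on no array and gave no measurement.

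Prrx1, a homeodomain factor of mesenchymal precursors and connective tissue, had the largest difference of the 10 genes on both of its probes. The main probe had a log2 signal of 2.76, 1.66 and 3.59 on the fetal arrays, on none of which it was well above background, and of 9.41, 10.48 and 10.11 on the adult basal arrays. The gene was thus clearly measured on each adult basal array and on no fetal array. The measured difference was -7.33 (SE 0.49, limma, Holm-adjusted p = 0.0199). Its bound on this scale was a 70.4-fold higher signal in adult basal cells. The difference was -5.49 with an offset of 16 and -4.01 with normexp correction. The second probe, designed to another Prrx1 transcript, had 2.29, 1.67 and 1.69 on the fetal arrays against 7.35, 8.36 and 8.15 on the adult basal arrays. Its difference was -6.07 (SE 0.29, limma, Holm-adjusted p = 0.00212), with a bound of 17.1-fold more signal in adult basal cells. Both probes therefore placed Prrx1 higher in adult basal cells, and both reached the low-signal filter in adult basal cells alone. With no filter the Holm-adjusted p was 0.193 for the main and 0.0278 for the second probe. The difference of the main probe was -7.00 on slide 1 and -7.85 on slide 2, and with slide as a block its Holm-adjusted p was 0.0874, whereas the second probe kept 0.0151. With variances that follow a trend the call of the main probe was lost (Holm-adjusted p = 0.11). Wherever it is named, this setting also used robust estimation, and the effects of trend and robust estimation were not separated. The call of the main probe was also lost without fetal array 1 (Holm-adjusted p = 0.31) or adult basal array 1 (0.125), 2 (0.0826) or 3 (0.205), and that of the second probe was kept when any 1 array was left out (highest Holm-adjusted p = 0.0356).

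Tcf4, an E protein that dimerizes with Twist and other helix-loop-helix factors, was well above background on all 6 arrays and did not separate the populations. The main probe had a log2 signal of 12.23, 12.25 and 12.23 on the fetal arrays against 12.01, 12.05 and 12.41 on the adult basal arrays, the latter lying on both sides of the fetal ones. The difference was 0.08 (95% interval -0.23 to 0.39, Holm-adjusted p = 1), so that a 2-fold difference in either direction lay outside the interval of this probe. The second Tcf4 probe gave a difference of 0.42 with a wider interval, from -0.59 to 1.44, and adult basal array 2 at 5.14 stood below the other arrays. Foxc2, a forkhead factor of mesenchyme and vessels, had 5.39, 5.25 and 5.59 on the fetal arrays against 5.39, 5.10 and 4.99 on the adult basal arrays, all well above background but under the low-signal filter. Its populations overlapped, with a difference of 0.25 (95% interval -0.12 to 0.62, from the fit without the filter).

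**Figure D2:**
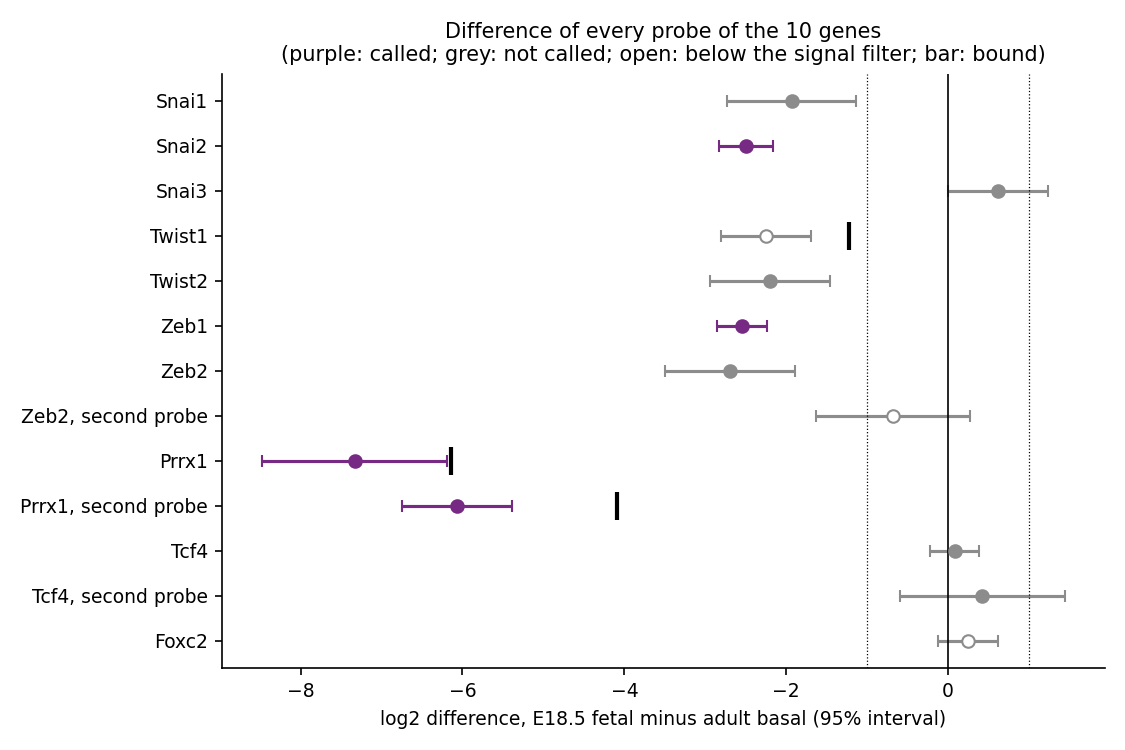
Difference in log2 signal, E18.5 fetal minus adult basal (horizontal axis), with its 95% interval for each of the 13 probes of the 10 genes; filled purple points were called, filled grey points were tested and not called, open points lay under the low-signal filter and carry the interval of the fit without it, black bars mark the bounds and dotted lines a 2-fold difference. The Prrx1 probes lie at -7.33 and -6.07, Snai2 and Zeb1 near -2.5, and the intervals of Snai3, Tcf4 and Foxc2 include 0.

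The treatment of the background set the size, and never the direction, of these differences. With scaling to the 75th percentile or with the authors' deposited values the differences changed little, for example to -2.48 and -2.57 for Snai2 and to -2.28 and -2.35 for Twist1. An offset of 16 or a normexp correction left Snai2 at -2.49 and -2.45 but shrank Prrx1 to -5.49 and -4.01, Zeb2 to -1.68 and -0.89, Twist2 to -1.62 and -0.95, Twist1 to -1.11 and -0.53 and Snai1 to -1.57 and -1.03. All 7 genes with separate populations kept a negative difference under each of these treatments. The treatments act on the same signals and largely keep their order, so for such genes the sign could hardly turn.

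**Figure D3:**
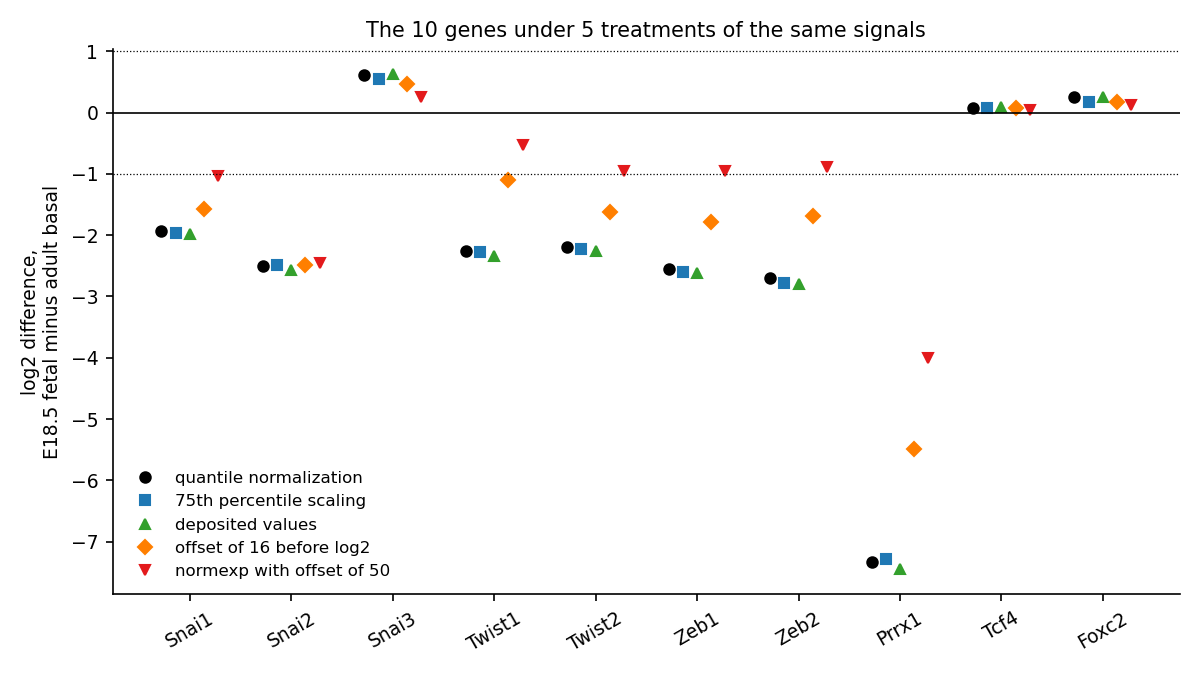
Difference in log2 signal, E18.5 fetal minus adult basal (vertical axis), of the main probe of each of the 10 genes under 5 treatments of the same arrays, with dotted lines at a 2-fold difference. Snai2 keeps its value near -2.5 under each treatment, whereas Zeb1 moves from -2.55 to -0.96 and Prrx1 from -7.33 to -4.01.

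Other transcription factors that are known to promote EMT in some settings were called in the other direction or not at all. Of 11 such genes, 9 were tested, and the median difference was 0.20. By Holm 3 were called higher in fetal cells and 0 in adult basal cells (1 with Benjamini-Hochberg adjustment). The shares of all tested genes called by Holm were 6.02% and 5.20%. With no low-signal filter none of the 3 was called (Holm-adjusted p = 0.0508 for Foxc1, 0.0534 for Prrx2 and 0.183 for Foxq1). Prrx2, the paralog of Prrx1, had a log2 signal of 8.27, 8.58 and 8.42 on the fetal arrays against 4.86, 5.50 and 5.14 on the adult basal arrays, a difference of 3.26 (SE 0.18, Holm-adjusted p = 0.0052). The direction was thus opposite to that of Prrx1, and the probes of both genes showed no overlap between populations. Foxc1, the forkhead paralog of Foxc2, was higher in fetal cells by 3.12 (SE 0.17, Holm-adjusted p = 0.005), and Foxq1, another forkhead gene, by 2.27 (SE 0.15, Holm-adjusted p = 0.0237). The call of Prrx2 was lost without fetal array 1 (Holm-adjusted p = 0.07), 2 (0.0758) or 3 (0.0797) or adult basal array 3 (0.0636). That of Foxc1 was lost without fetal array 1 (0.102) or adult basal array 3 (0.0602), and that of Foxq1 when any array other than adult basal array 2 was left out (0.175 to 0.372).

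The dimer partners of the helix-loop-helix factors, and the Id proteins that sequester them, were all well above background in both populations, and none of these 6 genes was called by limma with Holm adjustment, with 5 higher in fetal and 1 in adult basal cells at an unadjusted p under 0.05, which 31.8% and 32.0% of all tested genes passed in these directions. With variances that follow a trend, 2 were called higher in fetal and 1 in adult basal cells. With Benjamini-Hochberg adjustment 3 were higher in fetal and 1 in adult basal cells, and the median difference was 1.099. Tcf3, which encodes the E proteins E12 and E47, was at 11.88 ± 0.14 (SD, n = 3) in fetal and 10.40 ± 0.23 in adult basal cells, a difference of 1.48 (Holm-adjusted p = 0.301). Tcf12 differed by 0.68 (Holm-adjusted p = 1). Id1 differed by 2.77 but varied widely, with 10.96, 9.61 and 11.12 on the fetal against 7.23, 7.45 and 8.71 on the adult basal arrays (Holm-adjusted p = 1). Id2 differed by 2.34 (Holm-adjusted p = 0.0991) and Id3 by 0.72 (Holm-adjusted p = 1), both with every fetal array above the adult basal arrays. Id4, known from basal mammary cells, pointed the other way with a difference of -1.59, from 11.05 ± 0.21 in fetal to 12.63 ± 0.18 in adult basal cells (SD, n = 3, Holm-adjusted p = 0.195).

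Epithelial regulators, the factors known to oppose EMT or to maintain epithelial identity, were in part higher in fetal cells. Of 13 genes, all tested, 5 were called higher in fetal cells and 0 in adult basal cells, with 8 and 0 by Benjamini-Hochberg adjustment and a median difference of 2.02. Of all tested genes 6.02% and 5.20% were called in these directions (15.8% and 13.9% by Benjamini-Hochberg adjustment). Elf5, a luminal progenitor factor known to repress Snai2, had 12.60, 12.82 and 12.53 on the fetal arrays against 4.88, 5.001 and 5.41 on the adult basal arrays, a difference of 7.55 (SE 0.16, Holm-adjusted p = 7.54e-06). Foxa1, a luminal pioneer factor, differed by 6.46 (SE 0.37, Holm-adjusted p = 0.00733) and Grhl3, a grainyhead factor of epithelial barriers, by 4.59 (SE 0.13, Holm-adjusted p = 4.96e-05). The fetal count of 5 was 3 without fetal array 1, 2 or 3 or adult basal array 3. Klf5, a Krüppel-like factor of epithelial progenitors, differed by 2.12 (SE 0.15, Holm-adjusted p = 0.0287). Elf5 and Grhl3 kept their call when any 1 array was left out. The call of Foxa1 was lost without fetal array 1, 2 or 3 or adult basal array 3 (Holm-adjusted p between 0.0803 and 0.142), and that of Klf5 was lost whichever of the 6 arrays was left out (between 0.0779 and 0.412). With no low-signal filter both calls were lost (Holm-adjusted p = 0.0816 for Foxa1 and 0.212 for Klf5). Foxa1 was also lost with variances that follow a trend (0.103), and Klf5 with the replicate number as a block (0.0665).

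Ovol1, Ovol2, Grhl2, Esrp1 and Esrp2, singled out for their known relation to the Zeb genes, were not called. Ovol1, a zinc-finger repressor of Zeb1, had a difference of 2.54 from 9.71, 9.77 and 9.41 on the fetal against 7.03, 7.51 and 6.75 on the adult basal arrays, which narrowly missed the threshold (Holm-adjusted p = 0.0782) and passed by Benjamini-Hochberg adjustment (adjusted p = 3.5e-05). It was also called with variances that follow a trend (Holm-adjusted p = 0.00904), normexp correction (0.021), an offset of 16 (0.0174), the replicate number as a block (0.042) and without adult basal array 2 (0.0138). It was further from the threshold with slide as a block (0.257) and with no low-signal filter (0.559). Its paralog Ovol2 overlapped between populations, at 13.47 ± 0.22 in fetal and 13.69 ± 0.37 in adult basal cells (SD, n = 3), with a 95% interval of the difference from -0.70 to 0.27. Grhl2, which represses Zeb1, differed by 0.49 (Holm-adjusted p = 1). The splicing regulator Esrp1, which Zeb1 is known to repress, was at 13.21 ± 0.10 and 13.30 ± 0.17 (SD, n = 3), with an interval from -0.38 to 0.20, while Esrp2 differed by 1.26 (Holm-adjusted p = 0.303). The sign of the difference of Esrp1 turned under normexp correction, as it did without adult basal array 2.

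Among target genes of the repressors, several junction genes were higher in fetal cells. Of 21 epithelial targets, all tested, 8 were called higher in fetal cells and 0 in adult basal cells (11 and 2 by Benjamini-Hochberg adjustment), with a median difference of 1.05. Of all tested genes 6.02% and 5.20% were called in these directions by Holm. The adult basal count was 1 with variances that follow a trend, averaged probes, normexp correction or an offset of 16. The count of 8 was 5 without fetal array 1 or 3 and 4 without fetal array 2 or adult basal array 3. Tjp3, a tight junction scaffold, had 13.09, 13.46 and 13.37 on the fetal against 8.10, 7.93 and 8.18 on the adult basal arrays, a difference of 5.24 (SE 0.13, Holm-adjusted p = 2.48e-05). The claudins Cldn7 and Cldn3, membrane strands of the tight junction, differed by 4.60 (SE 0.17, Holm-adjusted p = 0.000327) and 4.39 (SE 0.15, Holm-adjusted p = 0.000176), and Cgn, the junction protein cingulin, by 4.41 (SE 0.18, Holm-adjusted p = 0.000634). These 4 calls were kept when any 1 array was left out. Cdh1, which encodes E-cadherin and is the best known target, was at 13.37, 13.11 and 12.88 on the fetal against 12.25, 12.35 and 12.48 on the adult basal arrays. Every fetal array was above the adult basal arrays, but the difference of 0.76 (SE 0.15, 95% interval 0.42 to 1.11) was under 2-fold and not called (Holm-adjusted p = 1). Epcam was higher in fetal cells by 1.88 (SE 0.13, Holm-adjusted p = 0.026), and since the populations were sorted at different levels of EpCAM this is no independent result. Epcam is nevertheless included in the count of 8 and in the median of the list. Its call was lost with slide as a block (Holm-adjusted p = 0.152), with the replicate number as a block (0.19) and with no low-signal filter (0.179). It was also lost without fetal array 1 (0.403), 2 (0.343) or 3 (0.247) or adult basal array 2 (0.11) or 3 (0.163).

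Genes of the mesenchymal program were in part higher in adult basal cells. Of 21 genes, 20 were tested, 8 were called higher in adult basal cells and 0 in fetal cells (9 and 1 by Benjamini-Hochberg adjustment), with a median difference of -0.90. Of all tested genes 5.20% and 6.02% were called in these directions (13.9% and 15.8% by Benjamini-Hochberg adjustment). At an unadjusted limma p under 0.05, 16 were higher in adult basal and 1 in fetal cells, beside 32.0% and 31.8% of all tested genes. Of all 21 genes, 16 had every adult basal array above every fetal array, 1 had the reverse and 4 overlapped. Over all genes these shares were 29.4% with adult basal and 28.0% with fetal arrays above. The count of 8 was 5 without fetal array 3 or adult basal array 1. Postn, the matrix protein periostin, had 8.01, 8.39 and 8.25 on the fetal against 15.66, 16.64 and 16.54 on the adult basal arrays, a difference of -8.06 (SE 0.26, Holm-adjusted p = 0.000141). Mmp3, the matrix protease stromelysin, was well above background on no fetal array and was called higher in adult basal cells (measured difference -7.47, Holm-adjusted p = 0.00484). Its bound was 71.7-fold, and the difference was -5.56 with an offset of 16 and -3.92 with normexp correction. The call of Mmp3 was lost with no low-signal filter (Holm-adjusted p = 0.0577) and without fetal array 3 (0.0619) or adult basal array 1 (0.081). Tagln, a smooth muscle actin-binding protein, differed by -4.88 (SE 0.19, Holm-adjusted p = 0.00051). Acta2, smooth muscle actin, is a myoepithelial as well as a mesenchymal gene and differed by -4.07 (SE 0.16, Holm-adjusted p = 0.000488).

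Vim, Cdh2 and Fn1, singled out for their known relation to these factors, were not called. Vim, the intermediate filament vimentin, had 14.93, 14.90 and 14.90 on the fetal against 13.78, 13.76 and 13.76 on the adult basal arrays. The spread in each population was under 0.1, and the difference of 1.15, higher on the fetal arrays, narrowly missed the Holm threshold (adjusted p = 0.0588) and passed by Benjamini-Hochberg adjustment (adjusted p = 2.79e-05). Vim was also called, as higher in fetal cells, with variances that follow a trend, with averaged probes and with an offset of 16 (Holm-adjusted p = 0.00313, 0.0388 and 0.0206), and was further from the threshold with slide as a block (0.369) and with no low-signal filter (0.24). Neither normexp correction (Holm-adjusted p = 0.0677) nor the replicate number as a block gave a call of Vim. Cdh2, the N-cadherin gene, differed by -0.86 (SE 0.12, Holm-adjusted p = 1), with 9.71, 9.71 and 9.41 on the adult basal arrays above 8.68, 8.85 and 8.73 on the fetal arrays. Fn1, fibronectin, differed by -0.94 (SE 0.33, Holm-adjusted p = 1), where adult basal array 2 at 14.87 stood above the others at 13.95 and 13.45. The other Cdh2 probe gave -1.35 (SE 0.15, Holm-adjusted p = 0.505) and was called higher in adult basal cells by Benjamini-Hochberg adjustment.

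**Figure D4:**
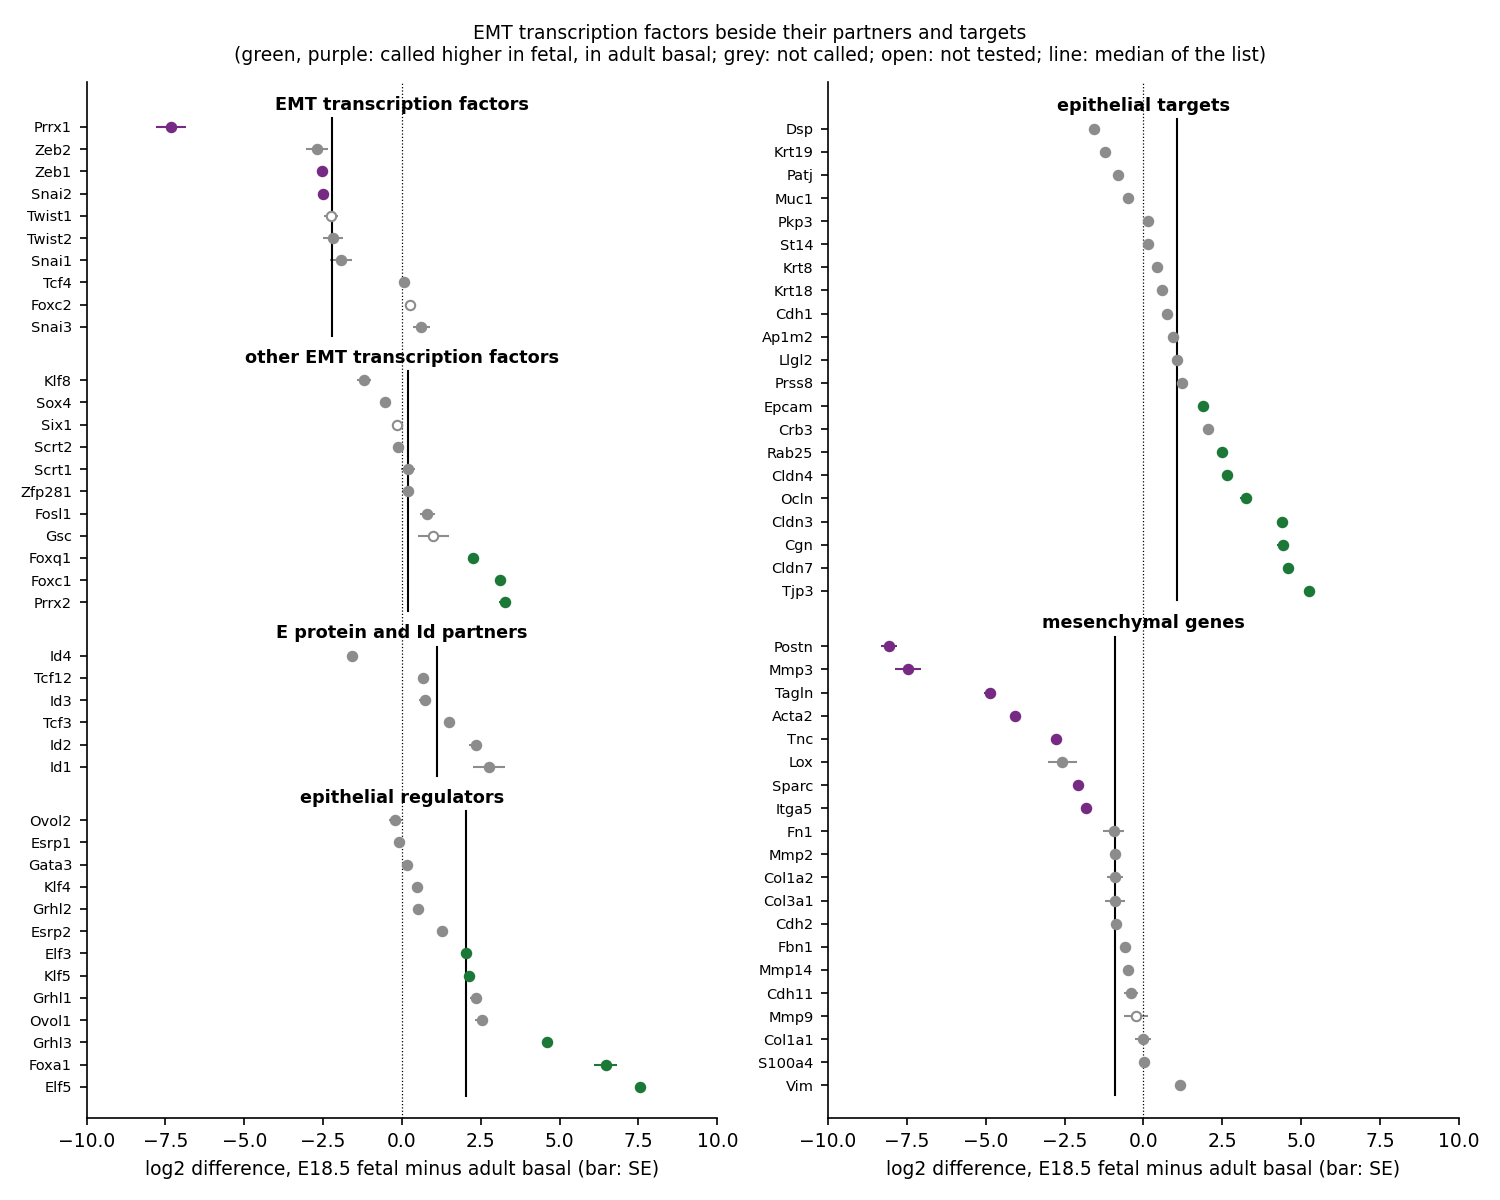
Difference in log2 signal, E18.5 fetal minus adult basal (horizontal axis), with its SE for the genes of 6 lists (1 mesenchymal gene is not shown), ordered by value within a list; green and purple genes were called higher in fetal and in adult basal cells, grey genes were not called, open points were not tested and the vertical line is the median of the list. The medians lie at -2.23 for the EMT transcription factors, 2.02 for the epithelial regulators, 1.05 for the epithelial targets and -0.90 for the mesenchymal genes.

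In sorted bulk RNA, fewer cells of a type and less RNA for each cell cannot be told apart, and several of these factors are also expressed by stromal cells, so markers of cell types that the gates could hold are given beside the members. Basal markers were high in the cells labelled adult basal, with 7 of 9 called higher in adult basal cells, beside 5.20% of all tested genes. Their summed signal was 899523 to 961442 in adult basal against 69496 to 83612 in fetal arrays, Acta2 being the brightest. Myh11, smooth muscle myosin, had the largest difference among them (-8.63, SE 0.18, Holm-adjusted p = 6.95e-06), and beside Acta2 the called genes included Cnn1, calponin (-6.01, SE 0.25, Holm-adjusted p = 0.000914), and Oxtr, the oxytocin receptor (-3.96, Holm-adjusted p = 0.000742). The keratin gene Krt14 was not called (-1.20, Holm-adjusted p = 1). The main Trp63 probe overlapped between populations (difference -0.08) and its other probe was called higher in adult basal cells (-3.06, Holm-adjusted p = 0.00019). All 9 basal markers were well above background on each fetal array. Of 8 tested luminal markers 4 were called higher in fetal cells, beside 6.02% of all tested genes. The summed signal of the luminal list was 179701 to 222626 in fetal and 115952 to 126453 in adult basal arrays, with Krt18 the brightest. None was called higher in adult basal cells by Holm and 1 by Benjamini-Hochberg adjustment, the keratin gene Krt19 (-1.22), and the median difference was 0.58. Of the 9 markers, 6 had every fetal array above the adult basal arrays and 3 the reverse by their main probes, which were Krt19, the estrogen receptor gene Esr1 and the prolactin receptor gene Prlr. The main Esr1 probe (-1.06) lay under the low-signal filter, and the Esr1 probe that was tested was called higher in adult basal cells by Benjamini-Hochberg adjustment and not by Holm (adjusted p = 0.251), with only 1 fetal array well above background. The Prlr probes disagreed, the main one at -0.35 (Holm-adjusted p = 1) and the other called higher in fetal cells (1.85, Holm-adjusted p = 0.026). Beside Elf5 and Foxa1, the called main probes were those of the progesterone receptor gene Pgr (2.13, SE 0.13, Holm-adjusted p = 0.0125, and 1.67 with a Holm-adjusted p = 0.356 by its other probe) and the surface antigen gene Cd24a (2.15, SE 0.13, Holm-adjusted p = 0.0111). The luminal count was 1 without fetal array 1, 2 or 3 or adult basal array 3, where Pgr, Cd24a and Foxa1 missed the threshold. Pgr and Cd24a also missed it with no low-signal filter (Holm-adjusted p = 0.0975 and 0.0876) and with the replicate number as a block (0.061 and 0.121).

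The methods deplete stromal cells from the adult sample with BP-1, and both gates took cells with EpCAM on their surface, which fibroblasts lack. Fibroblast markers lay in the same direction as the called EMT transcription factors. Of 10 genes, 9 had every adult basal array above every fetal array, 2 of the 9 tested were called higher in adult basal cells (4 by Benjamini-Hochberg adjustment), and the median difference was -1.01. Over all genes 29.4% had adult basal arrays above. Of all tested genes 5.20% were called higher in adult basal cells (13.9% by Benjamini-Hochberg adjustment). At an unadjusted limma p under 0.05, 8 of the 9 tested markers were higher in adult basal and 0 in fetal cells, beside 32.0% and 31.8% of all tested genes. Pdgfrb, the platelet-derived growth factor receptor of stromal and mural cells, had 4.92, 4.76 and 5.23 on the fetal against 9.04, 9.39 and 9.51 on the adult basal arrays (difference -4.34, SE 0.17, Holm-adjusted p = 0.000558), and Dcn, the matrix proteoglycan decorin, had 9.50, 9.54 and 9.78 against 13.04, 13.39 and 13.72 (difference -3.78, SE 0.18, Holm-adjusted p = 0.00231), a call lost without fetal array 1 (0.0531). Col1a1, a defining collagen gene, overlapped with a difference of -0.01, and Pdgfra differed by -0.37. Col1a1, Col1a2 and Col3a1 are counted among the mesenchymal genes too. The summed signal of the list was 6306, 6493 and 7961 on the fetal against 18077, 22174 and 28844 on the adult basal arrays, with Col1a2 the brightest at 23.2% of the adult basal sum, and only Dpt was well above background on no fetal array. The part of fibroblast RNA in the differences of Prrx1, Zeb1, Zeb2, Twist1, Twist2, Snai1 and Snai2 was not tested.

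Markers of other cells were seldom called. The sort gated against endothelial and blood cells, and none of the 5 tested endothelial or 7 tested leukocyte genes was called by Holm (3 and 1 higher in adult basal cells by Benjamini-Hochberg adjustment, 3 and 2 at an unadjusted p under 0.05). Of all tested genes 5.20%, 13.9% and 32.0% were higher in adult basal cells by these 3 rules. Their share among the leukocyte genes was near this, and among the endothelial genes it was larger by the last 2 rules. The summed signals were 10837 to 12608 in fetal and 11275 to 13825 in adult basal arrays for endothelium, with Kdr the brightest. For leukocytes they were 26385 to 34665 and 24467 to 33918, with Itgam the brightest. Kdr made up 91.3% of the adult basal sum of its list and Itgam 47.3%, so the endothelial sum is mostly that of Kdr. Of the 6 endothelial genes, 4 had every adult basal array above every fetal array and 2 overlapped, beside 29.4% of all genes with adult basal arrays above. The other probe of the macrophage gene Adgre1 was well above background on all adult basal and on no fetal arrays and was called higher in adult basal cells by Benjamini-Hochberg adjustment alone, whereas its main probe gave -0.42. The endothelial list had a median difference of -1.33, and -1.102 with Tek at its bound, since Tek was well above background on no fetal array. None of 3 tested pericyte, 3 Schwann cell or 4 adipocyte genes was called by Holm. By Benjamini-Hochberg adjustment 1, 0 and 0 were called, the pericyte gene as higher in adult basal cells. At an unadjusted p under 0.05, 2 pericyte genes and 1 Schwann cell gene were higher in adult basal cells and 1 adipocyte gene in fetal cells. Of all tested genes 32.0% and 31.8% passed in these directions. The median differences of the pericyte, Schwann cell and adipocyte lists were -0.51, 0.06 and -0.03. Their summed signals ran from 357 to 377 in fetal and from 484 to 524 in adult basal arrays for pericytes, led by Cspg4. They ran from 11673 to 14917 and from 9775 to 14268 for Schwann cells, led by Sox10. For adipocytes, led by Plin1, they ran from 613 to 1107 and from 729 to 891. Sox10 made up 96.2% of the adult basal sum of its list, so the Schwann cell sum is mostly that of Sox10. Cspg4 made up 55.8% and Plin1 67.5% of theirs. Kcnj8 was well above background on no array and Adipoq on no adult basal array. Of 4 tested skeletal muscle genes 1 was called, Acta1, the skeletal muscle actin gene (-4.68, SE 0.12, Holm-adjusted p = 3.44e-05), which made up 97.1% of that list's adult basal sum (21240 to 23582 against 1288 to 1488 in fetal arrays), whereas the muscle factors Myod1, Myog and Pax7 overlapped. The part of these cells in the differences of the EMT transcription factors was not tested.

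**Figure D5:**
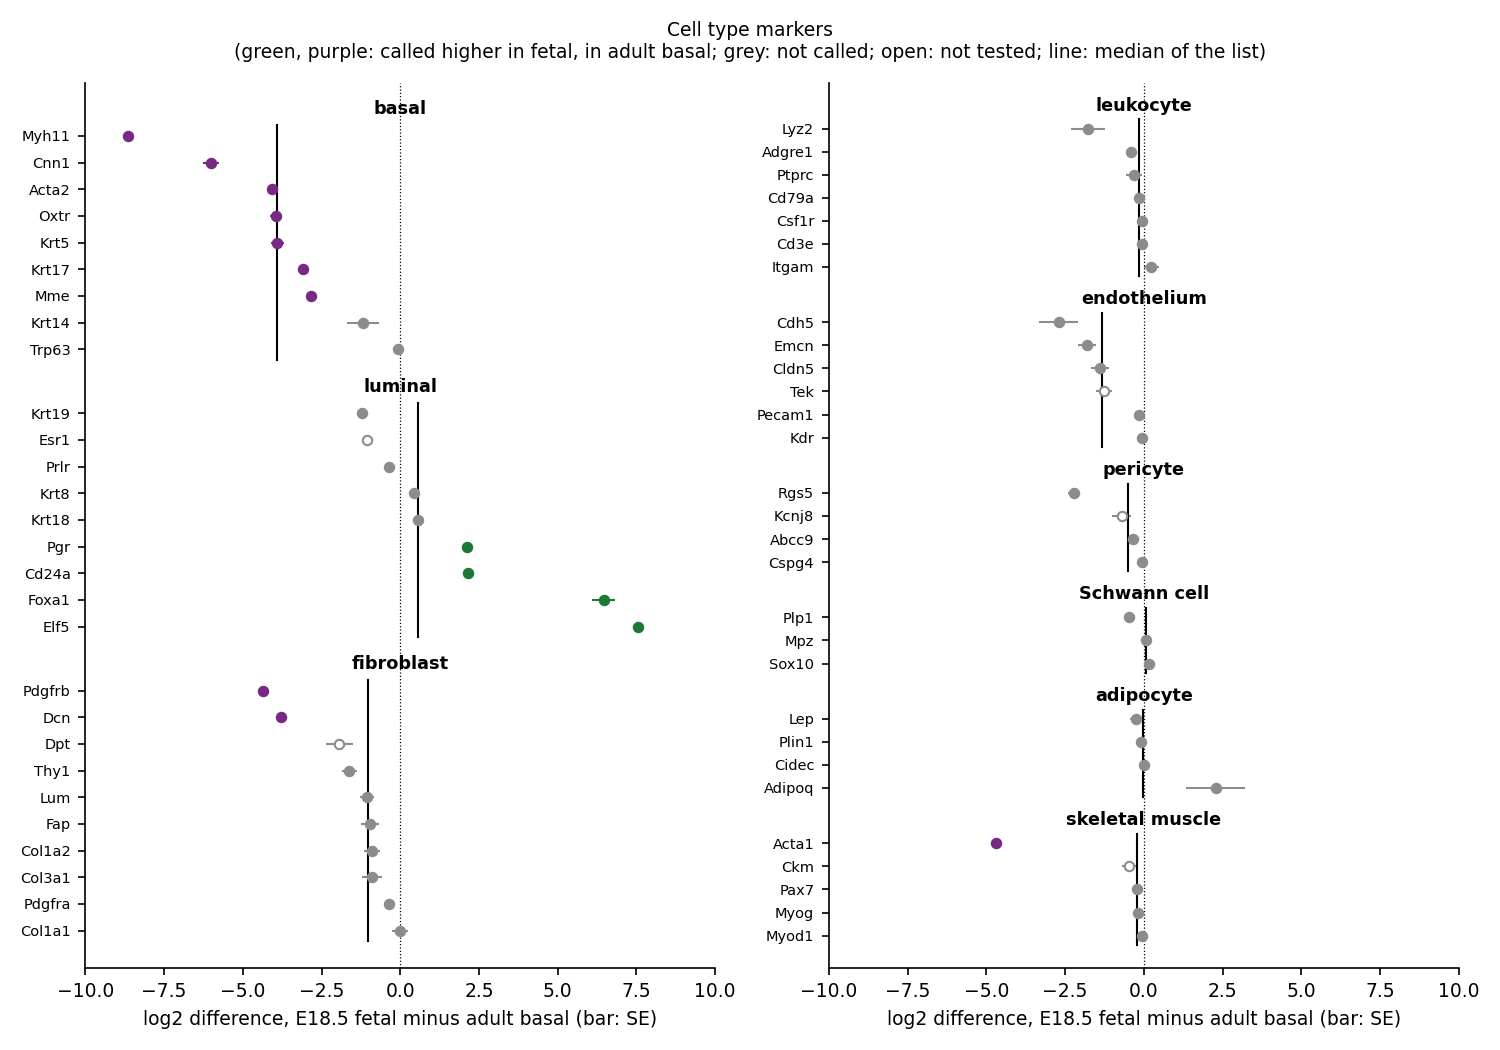
Difference in log2 signal, E18.5 fetal minus adult basal (horizontal axis), with its SE for each marker gene of 9 cell types; colors, open points and median lines are as in the plot of partners and targets. The basal marker Myh11 lies furthest to the left at -8.63, the fibroblast markers Pdgfrb and Dcn lie at -4.34 and -3.78, and leukocyte, Schwann cell and adipocyte medians lie close to 0.

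The arrays were of like quality, with 76.4% to 83.3% of probes well above background on each, 1 slide holding fetal array 1 and adult basal arrays 1 and 3 and the other holding the remaining 3. Replicates correlated at 0.99 among fetal and at 0.98 to 0.99 among adult basal arrays, and at 0.83 to 0.85 between populations. The median SD over tested genes was 0.12 among fetal and 0.18 among adult basal arrays, against which the spread of Snai1 was wide in both populations and that of Snai2 in fetal cells was narrow.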

How the data were processed

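Each of the 6 RNA samples, 3 from each population, was hybridized to its own array. The authors deposited scanner intensity values, background-subtracted within each array by Agilent Feature Extraction 11.0.1.1 (per the submitters' processing notes), and a log2 table of the same arrays that the authors quantile normalized; each of its columns followed its own array (correlations of 0.971 to 0.996). The labels name a low-input kit primed with a T7 primer for labelling, whereas the methods name an exon kit, so which part of a transcript a probe could see is not settled.

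From the deposited intensity, control spots and outlier spots (104 to 326 an array) were left out, log2 values were averaged over spots of a probe and the 6 arrays were quantile normalized. Of 55681 probes, 27235 were named through unversioned accessions in a RefSeq table (GRCm38.p6), which gave 20660 genes; the other probes are unnamed here. k-means clustering of mean signals into 3 clusters (100 starts) put the upper edge of the dimmest cluster at a log2 signal of 5.95, and the 20448 probes that reached it in either population were fitted with limma 3.58.1 in R 4.3.3 (lmFit and eBayes) and adjusted over all of them. The brightest probe of a gene on average over the 6 arrays is its main probe. Tables and plots were made in Python 3.11.15 with pandas 2.3.3, numpy 2.4.6 and matplotlib 3.10.9. The fit was tested on simulated data with known changes.

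The members and lists were chosen with earlier results of these data known, so lists are described by counts and medians and were not tested. Named are the members with every probe, from each other list up to 4 called genes a direction with the largest difference, and a fixed set of partners and targets (Cdh1, Epcam, Vim, Cdh2, Fn1, Ovol1, Ovol2, Grhl2, Esrp1, Esrp2, Tcf3, Tcf12 and the Id genes); other genes named as defining or disagreeing markers were picked after their values were seen. Of the mesenchymal list, 1 gene that the rule names is counted but not reported here. The promoters were matched by symbol. The number of arrays limits the precision, and no spot was saturated. Alternatives were other normalizations, background treatments (an offset of 16, or normexp on median spot and background signals with an offset of 50) and filters. Further ones were all probes, moderated variances with a trend and robust estimation, and Benjamini-Hochberg adjustment. The last were slide or replicate number as a block, each array left out, and probes of a gene averaged.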

Additional observations from a re-analysis of the deposited data

How the results depend on the processing

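The number of called EMT transcription factors was 3 with 75th percentile scaling, the deposited values, all probes, the filter on probes well above background and averaged probes, and 2 with variances that follow a trend, normexp correction, an offset of 16 and slide as a block. It moved to 6 with Benjamini-Hochberg adjustment, to 1 with no low-signal filter and to between 0 and 2 when 1 array was left out. With no filter Zeb1 stayed called (Holm-adjusted p = 0.0304), and Snai2 and the main Prrx1 probe missed the threshold (0.0576 and 0.193). The count of called probes, 2270 in all, moved to 6133 with Benjamini-Hochberg adjustment, to 1182 with no filter and to between 948 and 1989 when 1 array was left out, each such fit having fewer arrays, and was 3356 with variances that follow a trend. With the replicate number as a block, 0 EMT transcription factors and 1302 probes were called, with Snai2 at a Holm-adjusted p of 0.0549, Zeb1 at 0.0564 and Prrx1 at 0.0718; the deviations of arrays of the same number correlated at -0.03, 0.09 and 0.05, so the numbers were not taken to pair the samples. Of 54 named genes, 32 were called, of which 16 stayed called under all 18 alternatives. The difference of Esrp1, which was not called, turned to 0.0033 with normexp correction and ran from -0.15 to 0.0086 when 1 array was left out, turning without adult basal array 2, and no other named gene changed direction where it could be fitted. Twist1 and Foxc2 could be fitted under 2 alternatives only, the others having removed their probes, and Zeb1, Zeb2, Twist2 and Snai3 could not be fitted with normexp correction or the offset of 16, nor Snai1 with normexp correction, Snai3 with the deposited values or without fetal array 1 or 2, or Zeb2 with averaged probes or without adult basal array 3. With no filter the called genes also fell to 0 of the other EMT transcription factors, 3 epithelial regulators, 5 epithelial targets, 5 mesenchymal genes, 1 luminal marker, 1 corepressor and 0 of the protein turnover genes. Low signals in fetal cells limit Snai1, Twist1, Twist2, Zeb1, Zeb2 and Prrx1, where the size of the difference moved with the background treatment.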

Other observations

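Corepressors that Snail and Zeb proteins are known to recruit were well above background on all 6 arrays, and all 13 were tested. Ezh2, the methyltransferase of the Polycomb complex, was higher in fetal cells by 2.21 (SE 0.11, limma, Holm-adjusted p = 0.00212), with 12.25, 12.29 and 12.35 on the fetal against 9.99, 10.22 and 10.03 on the adult basal arrays, a call kept under all 18 alternatives. Hdac1, a histone deacetylase, was higher in fetal cells by 2.01 (SE 0.13, Holm-adjusted p = 0.0173), a call lost with no low-signal filter (0.127), with slide as a block (0.0984) and without fetal array 1 (0.25), 2 (0.279) or 3 (0.244) or adult basal array 2 (0.0529) or 3 (0.154). The other 2 Hdac1 probes gave 1.69 and 1.95 and missed the threshold (Holm-adjusted p = 0.107 and 0.0702), passing by Benjamini-Hochberg adjustment. Ajuba, a LIM protein that bridges Snail to its corepressors, was higher in adult basal cells by 2.27 on the log2 scale (11.87 ± 0.21 against 9.60 ± 0.20, SD, n = 3, Holm-adjusted p = 0.0228), a call lost with no low-signal filter (0.177), with slide as a block (0.138) and whichever array was left out (0.062 to 0.369). These were the 2 corepressors called in fetal and the 1 called in adult basal cells, beside a median difference of 0.31 over the list. Of all tested genes 6.02% and 5.20% were called in these directions.

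Of 9 genes that set the stability of Snail, Twist or Zeb proteins, 8 were tested and 1 was called, beside 11.2% of all tested genes. Lats2, a Hippo pathway kinase, had 9.70, 9.73 and 9.48 on the fetal against 11.61, 11.89 and 11.80 on the adult basal arrays (difference -2.13, SE 0.12, Holm-adjusted p = 0.00761). Its other probe gave 0.50 (SE 0.16, Holm-adjusted p = 1), so the probes disagreed in direction, and the mean of both was -0.81. The call was also lost with no low-signal filter (0.0605) and without fetal array 1 (0.129), 2 (0.0956) or 3 (0.074) or adult basal array 3 (0.087). The median difference of the list was -0.41.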
